A study of Triticum aestivum with 96 samples.

Results

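Senescent and mature flag leaves of bread wheat were compared at subjective midday, the part of the 24 h cycle from 5 to 9 h after subjective dawn. The members are 24 of the 96 RNA-seq libraries of the series, chosen by label: both replicates of both stages at ZT53, ZT55, ZT57, ZT77, ZT79 and ZT81. This gives 12 senescent and 12 mature libraries. Zeitgeber time (ZT) counts hours from the dawn at which the growth room was switched to continuous light at 20 °C, after growth in 12 h light at 20 °C and 12 h dark at 15 °C. The senescent group comprised flag leaves of cultivar Mace with visible loss of chlorophyll, and the mature group flag leaves of the same cultivar at ear emergence. Leaves of both stages were taken in the same room at the same hours from the primary tiller, but from sowings 28 days apart, so stage and sowing batch cannot be told apart. Each library was made from RNA of 2 leaves pooled in equal parts. The other 72 libraries (a dawn window at 23, 1 and 3 h, a dusk window at 11, 13 and 15 h and a night window at 17, 19 and 21 h, 24 libraries each) served to test which stage differences were different at midday.

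The flag leaf is the uppermost leaf of a wheat tiller and a main source of carbon and nitrogen for the filling grain. In senescence its chloroplasts are dismantled, photosynthesis declines, and nitrogen and minerals are moved to the grain. The plant circadian clock keeps time in constant light through genes that repress one another at different hours, and it sets the daily timing of many leaf transcripts. A transcript that starts its daily change at another hour can therefore differ between leaves at one time of day and be alike at another. Wheat is hexaploid, and most genes have copies on the A, B and D subgenomes.

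The estimated number of reads per midday library was 7031628 ± 1398307 in senescent and 6846333 ± 684901 in mature leaves (SD, n = 12 each), within a range of 4789060 to 9487469. Values are read counts that the authors scaled by a factor of each library, called scaled counts below. Their total was 5884943 ± 219698 in senescent and 7063705 ± 366826 in mature libraries (SD, n = 12 each). No midday library stood apart: the median correlation of a library with the others of its stage, across genes on the log2 scale, was 0.945 to 0.963 in senescent and 0.930 to 0.952 in mature leaves. The table lists 139118 genes by identifier, and 0 of these identifiers were found in the reference gene table used here. Genes are therefore given by identifier with the chromosome that it contains, without names or roles, and markers of leaf, senescence or clock were not checked. In whole leaves, fewer cells of a type and less RNA per cell cannot be told apart.

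To find which transcripts differ between the stages at midday, senescent and mature libraries were compared with the time point as a covariate. Of the 42428 genes whose scaled count averaged 10 or more over all libraries, 9768 were higher and 10218 lower in senescent leaves (47.1% in all, 23% higher and 24.1% lower; limma, Benjamini-Hochberg adjusted p under 0.05). The median log2 fold change of all genes tested was 0.0038, and that of the called genes was 0.52 for the higher and -0.60 for the lower genes. The absolute log2 fold change was 1 or more for 1930 higher and 2362 lower genes, and 2 or more for 393 higher and 564 lower genes. The direction was the same at all 6 midday time points for 15366 of the 19986 called genes (76.9%). The calls were made in these same libraries and favour such agreement, so it is no separate test. In 1492 genes every senescent library was above every mature library (3.52% of the genes tested), and in 1590 every senescent library was below (3.75%). With libraries scaled to equal totals, the median log2 fold change of all genes was 0.25 and the split was 20146 higher to 5763 lower genes, so the number in each direction rests on the scaling. Without the libraries of replicate 1 the stage comparison called 14446 genes, and without those of replicate 2 it called 12289.

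The smallest p-values belonged to genes whose 2 groups of midday libraries were far apart. TraesMAC4A03G02159940 on chromosome 4A had 262 to 490.0 scaled counts in senescent libraries (median 366), against 35.8 to 68.8 in mature libraries (median 54.0). Its log2 fold change was 2.79 ± 0.082 (SE, limma adjusted p 6.86e-19). TraesMAC3A03G01437620 on chromosome 3A had 660 to 1437 scaled counts in senescent libraries (median 914), against 96.4 to 189 in mature libraries (median 138). All 12 senescent libraries were above all mature libraries for both of these genes. Per gene length, TraesMAC3A03G01437620 was the more abundant of the pair in senescent leaves, with 63.1 ± 15.1 FPKM against 20.6 ± 3.98 FPKM for TraesMAC4A03G02159940 (SD, n = 12 each). TraesMAC2D03G01303140 on chromosome 2D had 19.9 to 67.7 scaled counts in senescent libraries (median 42.4), against 314 to 569 in mature libraries (median 385), a log2 fold change of -3.25 ± 0.10 (SE, limma adjusted p 1.51e-18). TraesMAC7D03G04417600 on chromosome 7D had 3.41 to 26.6 scaled counts in senescent libraries (median 11.3), against 322 to 751 in mature libraries (median 447), a log2 fold change of -5.13 ± 0.16 (SE, limma adjusted p 1.63e-18). All 12 senescent libraries were below all mature libraries for these 2 genes.

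**Figure D1:**
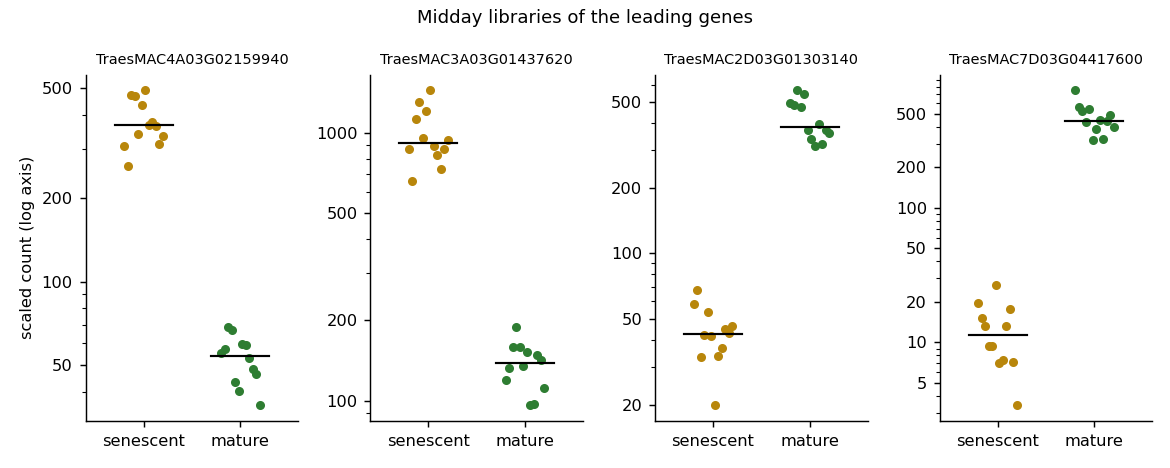
Scaled counts (log axis) of the 24 midday libraries for the leading 2 genes by p-value that were higher and the leading 2 that were lower in senescent leaves; points are libraries and bars are medians of 12. The senescent and mature libraries do not overlap in any panel.

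These 4 genes were called in the same direction in every window. The log2 fold change of TraesMAC4A03G02159940 was 2.79 at midday, 2.85 at dawn, 3.03 at dusk and 3.05 at night, each from the 24 libraries of that window. That of TraesMAC7D03G04417600 was -5.13 at midday, -5.66 at dawn, -5.13 at dusk and -5.09 at night. For TraesMAC3A03G01437620 it was 2.82 at midday, 2.72 at dawn, 2.68 at dusk and 2.53 at night. For TraesMAC2D03G01303140 it was -3.25 at midday, -3.30 at dawn, -3.44 at dusk and -3.97 at night. None of the 4 passed the test of a difference between midday and the other times (limma adjusted p from 0.609 for TraesMAC2D03G01303140 to 0.853 for TraesMAC7D03G04417600). Missing that threshold does not show that the difference stayed the same.

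The same comparison at the other times called similar numbers, 19711 genes at dawn (46.5%), 19970 at dusk (47.1%) and 19404 at night (45.7%). Of the 19986 genes called at midday, 11135 (55.7%) were also called in the same direction in all 3 other windows. Another 2182 (10.9%, or 5.14% of all genes tested) were called in no other window. Missing the threshold elsewhere does not show a difference, so the stage difference at midday was tested against the mean stage difference of the other windows in 1 fit to all 96 libraries.

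The stage difference itself differed between midday and the other times for 1068 of 42428 genes (2.52%; limma adjusted p under 0.05). For 371 genes (0.874%) the senescent minus mature difference was higher at midday than at the other times, and for 697 genes (1.64%) it was lower. The contrast reached at least 1 on the log2 scale for 87 of the 371 and 75 of the 697 genes. Midday differed from night for 2322 genes (5.47%), from dusk for 950 genes (2.24%) and from dawn for 433 genes (1.02%), and 43 genes with a called contrast passed all 3 of these tests. The median stage difference of the 371 genes was 0.28 log2 at midday, -0.22 at dawn, -0.28 at dusk and -0.50 at night. That of the 697 genes was -0.31 log2 at midday, 0.07 at dawn, 0.28 at dusk and 0.44 at night. These medians describe genes chosen by the same values and are no test. The calls need both sets of replicates: without the libraries of replicate 1 the contrast was called for 17 genes, and without those of replicate 2 for 89 genes. It was called for 603 genes without ZT55, 522 without ZT77 and 572 without ZT79, and for 2043 genes with midday taken as 3 to 11 h. Of those 89 genes, called on replicate 1 alone, 88 had the same sign in replicate 2, beside 63.4% of all genes tested. Only 9 of the 89 were also called in replicate 2. Their median absolute contrast over all 89 was 1.16 log2 in replicate 1 and 0.76 in replicate 2.

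**Figure D2:**
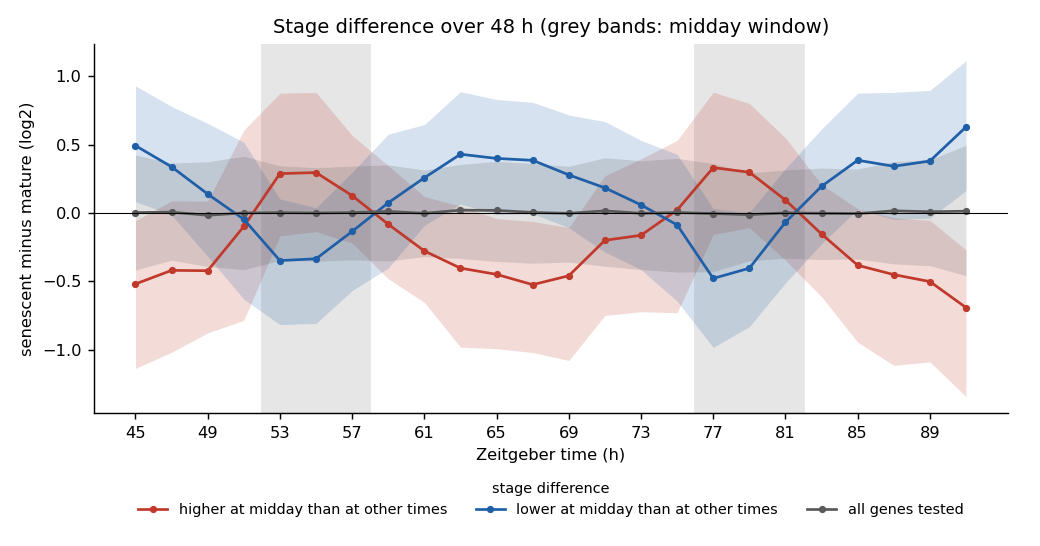
Senescent minus mature difference (log2) at each of 24 time points for the 371 genes with a higher and the 697 with a lower stage difference at midday, and for all 42428 genes tested; lines are medians over genes and bands run from the lower to the upper quartile. The medians of both sets cross 0 before and after each midday window, while the median of all genes stays close to 0.

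The 2 directions of the contrast held genes of several kinds. At midday itself 760 of the 1068 genes were called between the stages, which is 71.2% of the contrast genes and 3.80% of the genes called at midday. For 251 genes a difference called in the same direction elsewhere was larger at midday than the mean of the other windows. For 203 genes the midday difference was smaller than that mean and in the same direction. For 212 genes (0.5% of those tested) the stages were called in opposite directions at midday and in at least 1 other window. For 94 genes (0.222%) the stages were called at midday, in the direction of the contrast, and in no other window. The remaining 308 genes (28.8%) were not called at midday.

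The smallest p for a higher contrast belonged to TraesMAC2B03G01023440 on chromosome 2B. At midday it had 16.6 to 173 scaled counts in senescent libraries (median 75.2), against 0.996 to 49.9 in mature libraries (median 11.1), and 9 of 12 senescent libraries were above all mature ones. The log2 fold change was 2.32 ± 0.21 at midday and 0.0036 at dawn, 0.57 at dusk and -0.29 at night (SE, limma adjusted p 4.28e-10 at midday, 0.992 at dawn, 0.000104 at dusk and 0.142 at night). The contrast was 2.22 ± 0.22 (SE, limma adjusted p 3.84e-11). In senescent leaves the mean was 31.9 scaled counts at 5 h, 77.2 at 7 h, 161 at 9 h and 294 at 13 h, and in mature leaves it was 4.86 at 5 h, 11.6 at 7 h, 38.8 at 9 h and 218 at 13 h (4 libraries per stage and hour). Both stages had their highest mean at 13 h and their lowest at 3 h, with 4.58 scaled counts in senescent and 2.22 in mature leaves.

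The smallest p for a lower contrast belonged to TraesMAC6D03G03642770 on chromosome 6D. At midday it had 52.2 to 133 scaled counts in senescent libraries (median 72.0), against 93.9 to 328 in mature libraries (median 196), and 9 of 12 senescent libraries were below all mature ones. The stage difference was -1.29 ± 0.11 log2 at midday (SE, limma adjusted p 9.52e-11), -0.53 at dawn, -0.17 at dusk and -0.16 at night. Only the dawn difference passed among the other windows (limma adjusted p 1.97e-05 at dawn, 0.122 at dusk and 0.235 at night). The contrast was -1.01 ± 0.12 (SE, limma adjusted p 4.29e-09). Its lowest mean by hour was 61.6 scaled counts at 7 h in senescent leaves and 120 at 11 h in mature leaves.

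Of the 2182 genes called at midday and in no other window, 1144 were higher and 1038 lower in senescent leaves. A called contrast in the same direction was found for 39 of the higher and 55 of the lower genes, 4.31% of the 2182. The median log2 difference of the 39 genes was 0.48 at midday, 0.02 at dawn, 0.09 at dusk and -0.14 at night. That of the 55 genes was -0.58 at midday, -0.13 at dawn, -0.01 at dusk and 0.15 at night. Small medians outside midday follow from the rule that chose these genes and are no test. Without replicate 1 the group of 94 held 1 gene, and without replicate 2 it held 14.

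TraesMAC1A03G00040230 on chromosome 1A had the smallest contrast p of the 39. It had 254 to 450 scaled counts in senescent libraries at midday (median 388), against 151 to 341 in mature libraries (median 261), and 9 of 12 senescent libraries were above all mature ones. Its log2 fold change was 0.63 ± 0.075 at midday (SE, limma adjusted p 7.25e-08), 0.11 at dawn, 0.12 at dusk and -0.18 at night, with a contrast of 0.62 ± 0.11 (SE, limma adjusted p 8.20e-05). By hour, its mean was highest at 9 h in senescent leaves, with 435 scaled counts, and at 11 h in mature leaves, with 339. Its level per gene length was 93.8 ± 15.8 FPKM in senescent and 61.5 ± 15.0 FPKM in mature leaves at midday (SD, n = 12 each). TraesMAC3D03G01905340 on chromosome 3D had 18.6 to 103 scaled counts in senescent libraries (median 65.1), against 12.6 to 72.0 in mature libraries (median 33.2), and 4 senescent libraries were above all mature ones. Its log2 fold change was 0.66 ± 0.15 at midday (SE, limma adjusted p 0.000505), 0.22 at dawn, -0.18 at dusk and -0.26 at night. Its contrast was 0.74 ± 0.14 (SE, limma adjusted p 0.000561), but against dawn alone midday differed by 0.45 and missed the threshold (limma adjusted p 0.252). Its highest mean was at 15 h in both stages, with 106 scaled counts in senescent and 136 in mature leaves.

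Of the 55 lower genes, TraesMAC3B03G01719420 on chromosome 3B had 18.7 to 51.5 scaled counts in senescent libraries at midday (median 33.9), against 35.8 to 115 in mature libraries (median 84.1). In 8 of 12 senescent libraries it was below all mature ones. The log2 fold change was -1.12 ± 0.14 at midday (SE, limma adjusted p 2.22e-07), -0.21 at dawn, -0.28 at dusk and 0.01 at night, and its contrast was -0.96 ± 0.17 (SE, limma adjusted p 0.000166). Its lowest mean was at 9 h in both stages, with 24.6 scaled counts in senescent and 63.2 in mature leaves. TraesMAC3A03G01522360 on chromosome 3A had 62.0 to 137 scaled counts in senescent libraries (median 87), against 79.1 to 187 in mature libraries (median 129), and 5 senescent libraries were below all mature ones. Its mean in senescent leaves was 75.6 scaled counts at 7 h and 190 at 17 h, while its mean in mature leaves stayed between 110 at 9 h and 161 at 19 h. Each of these 4 genes missed the threshold for the contrast when the libraries of replicate 1 were left out (limma adjusted p 0.170 for TraesMAC1A03G00040230, 0.346 for TraesMAC3D03G01905340, 0.348 for TraesMAC3B03G01719420 and 0.341 for TraesMAC3A03G01522360), and TraesMAC3B03G01719420 alone passed it without replicate 2. All 8 values without 1 replicate had the sign of the full contrast.

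In 212 of the 1068 genes the order of the stages was reversed during the day: 79 were called higher and 133 lower in senescent leaves at midday, with a call in the opposite direction in another window. The opposite call fell at night for 160 genes, at dusk for 111 and at dawn for 24, and some genes had more than 1. Relative to each gene's mean, the median level of the 79 genes was highest at 9 h in senescent leaves (0.75 log2) and at 13 h in mature leaves (0.54 log2). That of the 133 genes was lowest at 9 h in senescent leaves (-0.92 log2) and at 11 h in mature leaves (-0.84 log2). In both groups of genes the extreme of the median therefore fell at an earlier hour in the senescent libraries. The choice of genes by opposite calls in these same libraries favours this order, and it was not tested. Without replicate 1 the group of 212 held 7 genes, and without replicate 2 it held 28.

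TraesMAC5D03G03140140 on chromosome 5D had 17.6 to 107 scaled counts in senescent libraries at midday (median 54.9), against 5.75 to 48.2 in mature libraries (median 13.6). Its log2 fold change was 1.46 ± 0.14 at midday and -0.42 at night (SE, limma adjusted p 2.75e-09 at midday and 0.0123 at night), and its contrast was 1.56 ± 0.17 (SE, limma adjusted p 1.25e-09). TraesMAC5B03G02915050 on chromosome 5B had 15.2 to 130 scaled counts in senescent libraries (median 53.2), against 5.75 to 61.05 in mature libraries (median 23.6). The stage difference was 1.32 ± 0.13 log2 at midday and -0.54 at night (SE, limma adjusted p 2.07e-09 at midday and 0.000816 at night). In TraesMAC5D03G03140140 the highest mean by hour was 93.3 scaled counts at 11 h in senescent leaves and 95.1 at 13 h in mature leaves. In TraesMAC5B03G02915050 it was 141 at 13 h in senescent leaves and 148 at 15 h in mature leaves. In senescent leaves a neighbouring hour was within the spread of the libraries for both genes. The mean was 89.2 ± 15.81 at 9 h and 93.3 ± 14.01 at 11 h for TraesMAC5D03G03140140 (SD, n = 4 each). For TraesMAC5B03G02915050 it was 135 ± 14.52 at 11 h and 141 ± 7.28 at 13 h (SD, n = 4 each). The choice of genes favours an earlier maximum in senescent leaves, and its hour and height were not tested.

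TraesMAC4D03G02431510 on chromosome 4D had 5.79 to 76.8 scaled counts in senescent libraries at midday (median 36.6), against 21.01 to 200.0 in mature libraries (median 82.1). Its log2 fold change was -1.29 ± 0.15 at midday and 0.76 at dusk (SE, limma adjusted p 5.04e-08 at midday and 0.00374 at dusk), and its contrast was -1.58 ± 0.19 (SE, limma adjusted p 1.70e-08). Its lowest mean was 10.1 scaled counts at 9 h in senescent leaves and 15.0 at 13 h in mature leaves. TraesMAC4A03G02106880 on chromosome 4A had 77.6 to 296 scaled counts in senescent libraries (median 136), against 117 to 629 in mature libraries (median 254). Its log2 fold change was -0.88 ± 0.13 at midday, 0.65 at dusk and 1.06 at night (SE, limma adjusted p 3.26e-06 at midday, 0.000959 at dusk and 4.65e-08 at night). Its lowest mean was at 11 h in both stages, with 94.5 scaled counts in senescent and 100.5 in mature leaves. At 21 h its mean was 1098 scaled counts in senescent and 535 in mature leaves, so that the stage with the lower midday level had the higher night level. Its contrast was -1.43 ± 0.18 (SE, limma adjusted p 8.36e-08). The contrasts of TraesMAC5D03G03140140 and TraesMAC4A03G02106880 missed the threshold without replicate 1 (limma adjusted p 0.0731 and 0.130), with the same sign.

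**Figure D3:**
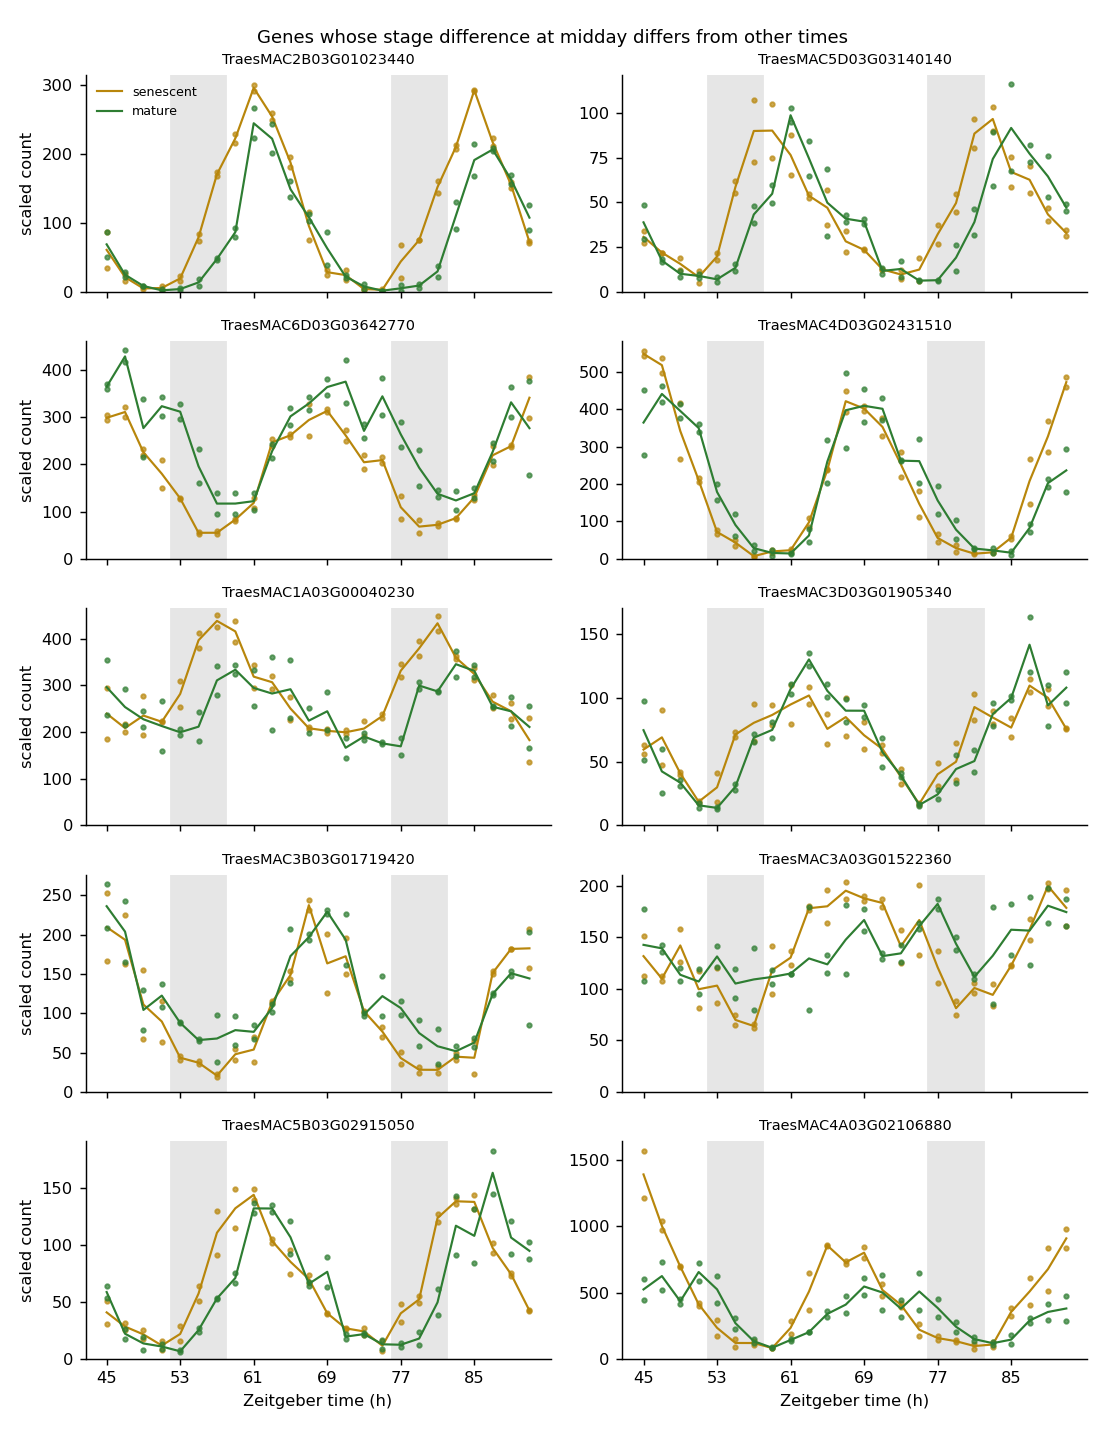
Scaled counts over 48 h of the 10 genes named for a stage difference at midday that differs from the other times; points are libraries, lines are means of 2 libraries per stage and time point, and grey bands mark midday. In the bands the senescent line is above the mature line at all 6 time points in the 5 genes named as higher at midday, and below it at all 6 time points in the 5 named as lower.

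Within each stage, the levels of the contrast genes were followed over the day as the median log2 level relative to each gene's mean over all libraries. For the 371 genes, the senescent median was highest at 7 h (0.26) and lowest at 19 h (-0.39), and the mature median was lowest at 5 h (-0.18) and highest at 21 h (0.25). Midday was the window with the highest level for 66.8% of these genes in senescent leaves and 11.3% in mature leaves, beside 34.4% and 28.6% of all genes tested. For the 697 genes, the senescent median was lowest at 9 h (-0.53) and highest at 21 h (0.64), and the mature median was lowest at 11 h (-0.52) and highest at 23 h (0.25). Night was the window with the highest level for 75.6% of these genes in senescent leaves and 39.7% in mature leaves, beside 30.2% and 27.7% of all genes tested. In senescent leaves the level at midday was below that of the other windows by a median of 0.77 log2 for the 697 genes, against 0.18 log2 in mature leaves. The movement was larger in senescent leaves for 577 of these 697 genes, beside 24109 of all 42428. For the 371 genes this held for 225, a share close to that of all genes tested. These values come from the libraries that chose the genes and were not tested.

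**Figure D4:**
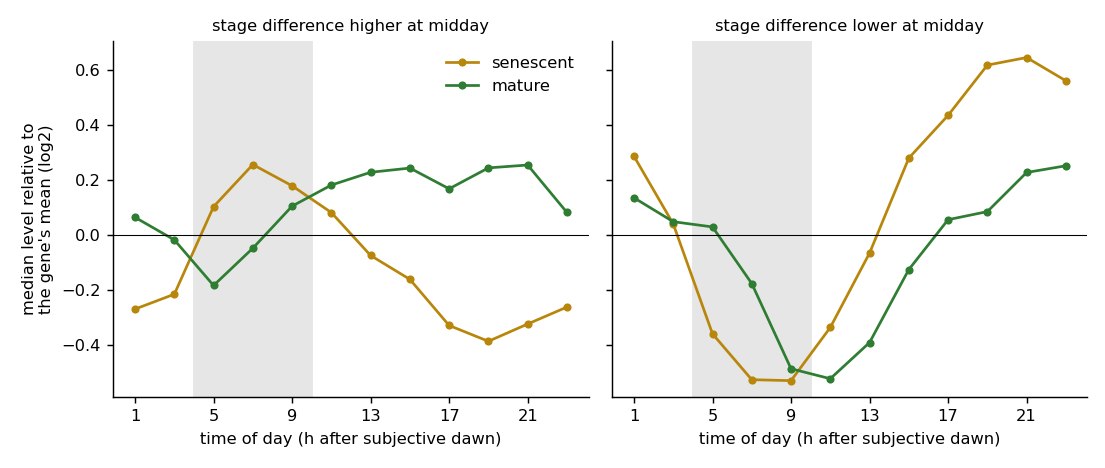
Median log2 level over the 371 genes with a higher (left) and the 697 genes with a lower (right) stage difference at midday, relative to each gene's mean, by hour after subjective dawn; each point is a median over genes of means of 4 libraries and the grey band is midday. On the left the senescent median is highest at 7 h where the mature one is below 0, and on the right the senescent median is near its minimum at 7 h, ahead of the mature minimum at 11 h.

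By single hours, the stage difference was highest at 5, 7 or 9 h for 315 of the 371 genes (84.9%) and lowest at these hours for 624 of the 697 genes (89.5%), which the choice of genes favours. For the 315 genes the extreme fell at 5 h in 116, at 7 h in 141 and at 9 h in 58. For the 624 genes it fell at 5 h in 293, at 7 h in 276 and at 9 h in 55.

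Calls were spread over all 21 chromosomes. Higher genes at midday made up 20.8% to 24.8% of the genes tested on a chromosome and lower genes 20.9% to 26.2%. Genes with a called contrast made up 1.89% (chromosome 5A) to 3.61% (chromosome 3B). Chromosome 3B had 83 of 2298 genes and chromosome 3A had 75 of 2147 (3.49%), while no other chromosome was above 2.78%, and chromosome 3D had 53 of 2208 (2.40%). By subgenome the share ranged from 2.41% for A to 2.65% for B. These shares were not tested against each other. How reads that fit several homoeologous copies were counted is not given in the sources used here, so values of near-identical copies are uncertain.

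The sampling covered midday on 2 successive subjective days, so the contrast was also fitted to each cycle alone, and the genes called in 1 cycle were described in the libraries of the other. From ZT45 to ZT67, 95 genes were called (0.224%), and 93 of them had the same sign from ZT69 to ZT91, where 40 were called as well. From ZT69 to ZT91, 243 genes were called (0.573%), and 232 of them had the same sign in the first cycle. Over all genes tested, 61.3% had the same sign in both cycles. The median contrast of the 30 genes called higher in the first cycle was 1.09 log2 there and 0.87 in the second, and that of the 65 called lower was -0.91 in the first and -0.75 in the second. The median of the 84 genes called higher in the second cycle was 1.18 there and 0.75 in the first, and that of the 159 called lower was -0.93 in the second and -0.58 in the first. For TraesMAC2B03G01023440 the contrast was 1.81 in the first and 2.64 in the second cycle, and for TraesMAC4D03G02431510 it was -1.53 and -1.62. The plain midday difference was called for 13403 genes at ZT53 to ZT57 (31.6%) and 14175 at ZT77 to ZT81 (33.4%), of which 10150 were called in both in the same direction and 16 in opposite directions. The sign was the same in the other cycle for 13141 of the 13403 and 13871 of the 14175 genes, beside 80.3% of all genes tested. With 1 replicate left out, limma called the contrast for 0 genes in the first cycle alone (1694 to 3477 of 42428 at an unadjusted p under 0.05). In the second cycle it was called for 0 genes without replicate 1 (2177 of 42428 at an unadjusted p under 0.05) and 19 without replicate 2.

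**Figure D5:**
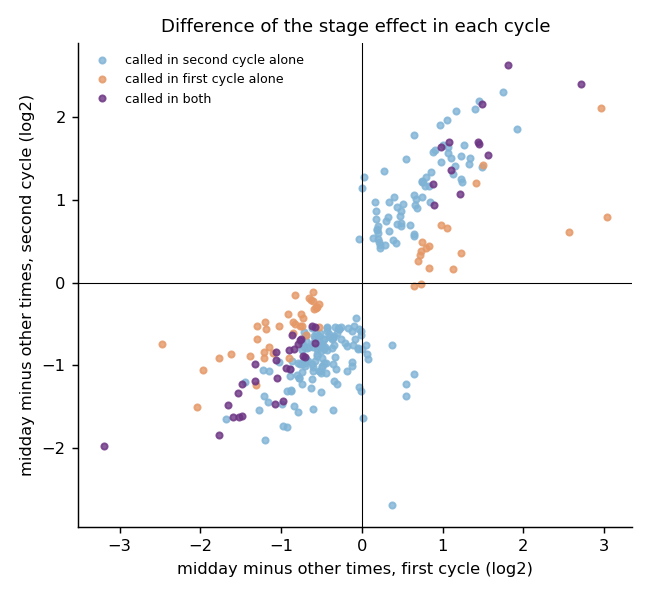
Midday minus other times of the senescent minus mature difference (log2), fitted to ZT45 to ZT67 (x axis) and to ZT69 to ZT91 (y axis), for each gene called in at least 1 of the 2 fits. Of the 95 genes called in the first cycle, 93 have the same sign in the second, and 40 genes were called in both.

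A test of the change in the midday difference between the cycles called 7 genes (0.0165%), of which 0 were higher and 7 lower in the second cycle (limma adjusted p under 0.05). At an unadjusted p under 0.05 there were 893 higher and 1542 lower genes of 42428. With no change in any gene, a share of about 0.05 would be below that p. The leading genes were TraesMAC4D03G02416160 on chromosome 4D and TraesMAC6A03G03391150 on chromosome 6A. TraesMAC4D03G02416160 had a log2 difference between the stages of 1.07 at ZT53 to ZT57 and -0.90 at ZT77 to ZT81, a change of -1.98 ± 0.31 (SE, limma adjusted p 0.0265). At ZT53 its libraries had 161 and 307 scaled counts in senescent leaves, against 69.6 and 79.3 in mature leaves, and at ZT77 they had 171 and 223 in senescent leaves, against 320 and 348 in mature leaves. TraesMAC6A03G03391150 had a log2 difference of 1.36 in the first and -0.36 in the second cycle, a change of -1.72 ± 0.27 (SE, limma adjusted p 0.0265). In both genes the mature level was higher in the second cycle: the mean of TraesMAC6A03G03391150 at ZT53 was 50.8 scaled counts in senescent and 15.8 in mature leaves, and at ZT77 it was 27.9 in senescent and 36.1 in mature leaves. Both missed the threshold with libraries scaled to equal totals (limma adjusted p 0.0545 for TraesMAC4D03G02416160 and 0.0593 for TraesMAC6A03G03391150), where 0 genes were called and 2333 had an unadjusted p under 0.05. Without replicate 1 this test called 0 genes (2025 at an unadjusted p under 0.05), and without replicate 2 it called 34.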

How the data were processed

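RNA was sequenced from pools of 2 flag leaves. The submitters' processing notes name bcl2fastq 2.17, STAR, Cufflinks and Cuffnorm; build, annotation and counting are not given in the sources used here. The deposited count values are a signal, read counts times a factor of each library: in the library with the lowest share, 99.4% of values above 0 were within 0.01 of a whole multiple of its most frequent value, and that value ranged from 0.516 to 1.43. Reads were estimated as the total over that value. The deposited FPKM table was used for levels per gene length and as an alternative. Because the values are scaled, no count model was run. Models with a variance trend were fitted with limma 3.58.1 in R 4.3.3 to log2(scaled count + 2), a scale that understates changes of low genes, for 42428 genes with a mean of at least 10 over all 96 libraries. Every fit had the time point as covariate; the contrast used 1 stage effect per window. P-values were Benjamini-Hochberg adjusted over all genes tested and called under 0.05. The p-values measure the spread between leaf pools together with the variation of the stage effect between the time points fitted with 1 stage effect. No 2 libraries held identical values. Fits were tested on simulated data that held no daily rhythm and no stage difference beyond those added at midday. That setting was simpler than the data here, so it does not show how the fits behave on them. Named genes are the 2 with the smallest p per direction and comparison, for the stage comparison among those with a log2 difference of at least 1 and 1 sign at all 6 time points. The comparison, rules and classes were chosen with earlier results of these data known. Alternatives covered pseudocount, filter, scaling, FPKM, a replicate block, window width and left-out replicates and time points.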

Additional observations from a re-analysis of the deposited data

Results flagged for a closer look

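The stage difference itself was tested to differ between times of day or between cycles for the following (limma adjusted p under 0.05 over 42428 genes). Midday differed from the mean of the other windows for 1068 genes, from dawn for 433, from dusk for 950 and from night for 2322, and the midday difference changed between the cycles for 7 genes. Among the named genes the log2 difference at midday minus the other times was 2.22 for TraesMAC2B03G01023440, 1.56 for TraesMAC5D03G03140140, 1.39 for TraesMAC5B03G02915050, 0.74 for TraesMAC3D03G01905340 and 0.62 for TraesMAC1A03G00040230. It was -1.58 for TraesMAC4D03G02431510, -1.43 for TraesMAC4A03G02106880, -1.01 for TraesMAC6D03G03642770, -0.96 for TraesMAC3B03G01719420 and -0.63 for TraesMAC3A03G01522360. The change from the first to the second cycle was -1.98 log2 for TraesMAC4D03G02416160 and -1.72 for TraesMAC6A03G03391150.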

How the results depend on the processing

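No named gene changed sign: of 267 values of named genes under an alternative, 249 kept their call and 18 lost it, 12 of the 18 without a replicate. Of 158 counts, 102 stayed within 1.5 times of the reported one. With an absolute log2 difference of at least 1 required, counts were 4292 at midday, 4835 at dawn, 4473 at dusk and 4496 at night; 162 for midday minus other times, 155 minus dawn, 252 minus dusk and 454 minus night; 47 and 113 for the first and second cycle alone; and 3 called at midday and in no other window with a called contrast (94 as reported) and 22 in opposite directions. With a mean of at least 50, fewer genes were tested, as the median of the mean level over the 42428 genes was 55.5. Stage counts were then 13029 at midday, 12655 at dawn, 13030 at dusk and 12361 at night. Without a filter, 85948 genes were tested. Of these, 126 were in opposite directions, and 44 and 101 were called in the first and second cycle alone. Midday minus other times gave 2043 genes with a window of 3 to 11 h, 603 without ZT55, 522 without ZT77 and 572 without ZT79. The change between cycles was called for 3 genes with a pseudocount of 0.5. By limma it was called for 0 genes without a filter, with equal totals and with FPKM. At an unadjusted p under 0.05 these settings had 4291 of 85948, 2333 of 42428 and 2439 of 42428 genes.

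The deviations of same-numbered replicates of the stages had a correlation of -0.042 to 0.129 at the 6 midday time points, over 0.1 at 2. Whether the replicate numbers pair libraries of the stages is not given in the sources used here and was not tested. A replicate block gave 61 genes in the group of 94, 39 and 150 in the first and second cycle alone and 42 for the change between cycles.

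Without 1 replicate number, counts ranged from 12289 to 14446 at midday, 10567 to 11355 at dawn, 12743 to 12905 at dusk and 9625 to 12878 at night. They were 17 to 89 for midday minus other times, 0 to 33 minus dawn, 64 to 105 minus dusk and 62 to 237 minus night. They were 1 to 14 in the group of 94, 7 to 28 in opposite directions, 0 to 34 for the change between cycles, 0 to 0 in the first and 0 to 19 in the second cycle alone. The counts of 0 are from limma, with 1694 to 3477 of 42428 genes at an unadjusted p under 0.05. Such fits hold fewer samples. The planned tests on read counts were not run because the values are scaled. Ordered by mean level into 4 equal groups of genes, 0.952% in the lowest and 5.42% in the highest had a called contrast.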

Other observations

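Among 7718 pairs of tested genes whose identifiers follow each other on a chromosome, the first gene was called at midday in 3588, and in 1104 of these the next was called in the same direction, beside 23% of all genes tested called higher and 24.1% called lower. With a log2 difference of at least 1 required of both, this was 125 of 724 pairs, beside 1930 higher and 2362 lower of all 42428 genes tested. For midday minus other times it was 18 of 189 pairs, beside 0.874% of all genes tested called higher and 1.64% called lower. Whether reads were shared between such neighbours was not tested.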
